A study of Mus musculus with 6 samples.

Results

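The adrenomedullin receptor system comprised 5 genes, Adm, Calcrl, Ramp1, Ramp2 and Ramp3, chosen by symbol from the 22026 symbols with an FPKM value (fragments scaled to transcript length and to the reads of the library) in every isolation. The RNAseq libraries came from choroid endothelial cells (ECs) of 129/B6 mice, for which the labels name no transgene and no treatment. RPE/choroid was digested and the ECs were sorted by flow cytometry after VE-Cadherin had been stained intravitally. At postnatal day 5 (P5) and at postnatal day 30 (P30) there were 3 independent isolations each, and every isolation pooled 7 animals. The comparison of P5 with P30 asks how these transcripts differ between developing and mature choroid ECs.

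Adrenomedullin, encoded by Adm, is a secreted vasodilator peptide that many ECs make and respond to. Its receptor is a pair of proteins: the calcitonin receptor-like receptor, encoded by Calcrl, is a G protein-coupled receptor that needs a receptor activity-modifying protein (RAMP) to reach the cell surface and to choose its ligand. With RAMP2 or RAMP3 the complex prefers adrenomedullin, whereas with RAMP1 it prefers calcitonin gene-related peptide. The complex signals mainly through Gs and cAMP, and in mice the ligand, Calcrl and Ramp2 are each needed for normal blood and lymphatic vessels.

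As a check of the labelled cell type, all 12 endothelial markers were detected in every isolation, and their summed FPKM ran from 21531 to 23985 at P5 and from 28895 to 34717 at P30. The share of symbols listed at 0 was 33.4% to 37.3% per isolation, 0 of 12 genes that every cell uses were at 0, and the summed FPKM of all symbols was 1432700 to 1485330 at P5 and 1571230 to 1734640 at P30. Sequencing depth is unknown from these files, so no counting interval is given. Genes whose mean FPKM reached 5 at either age, 12481 in all, were tested with limma on log2(FPKM + 1). Of these 735 were called higher at P30 (5.89%) and 726 higher at P5 (5.82%), where a call needs both p under 0.01 after Benjamini-Hochberg adjustment and a ratio of mean FPKM + 1 of 2 or more. The median log2 fold change over these genes was -0.10. All fold changes below are on the log2(FPKM + 1) scale, P30 minus P5, unless another scale is named.

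Of the 5 members, 4 passed the minimum and Ramp1 did not. Ramp3 was called higher at P30, and 0 of the 4 were called higher at P5, also at an unadjusted p under 0.05 in limma. The P30 isolations lay above every P5 isolation for Ramp2 and Ramp3, 2 of the 4 tested members, and this also held for 22.0% of all genes tested. The levels in FPKM had the same order of means at both ages: Ramp2, then Ramp3, Calcrl, Adm and Ramp1. At P5 the neighbours Ramp3 and Calcrl overlapped, whereas at P30 no neighbours in that order overlapped. In bulk RNA from sorted cells, fewer cells of a type and less RNA per cell cannot be told apart, and this applies to every value below.

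**Figure D1:**
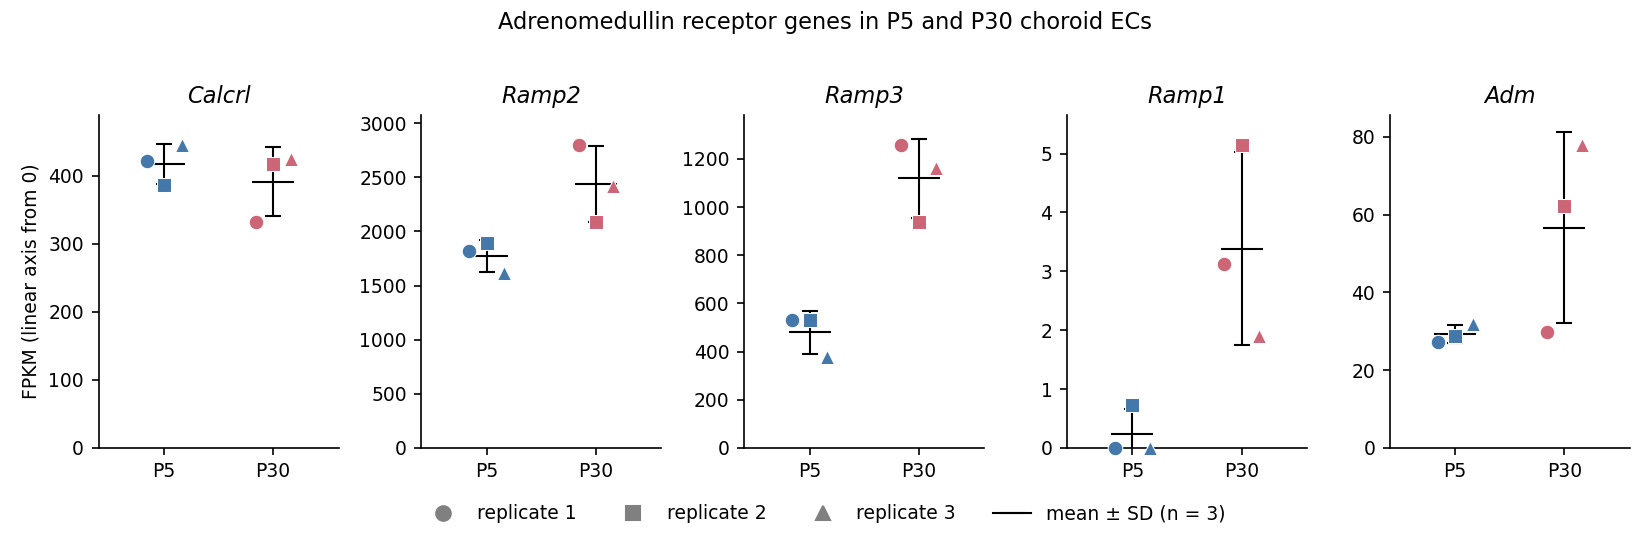
FPKM of each member on a linear axis from 0 in the 3 P5 and 3 P30 isolations, with the mean and SD of each age. Ramp3 at P30 (939 to 1257) lies well above P5 (378 to 531), Calcrl overlaps between ages, and Adm of P30 replicate 1 (29.9) sits within the P5 range.

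Calcrl, the receptor subunit, lies on chromosome 2 (mm9, chr2:84170783-84265568, minus strand, protein coding). It measured 422, 387 and 445 FPKM in P5 replicates 1 to 3 and 333, 418 and 424 FPKM in P30 replicates 1 to 3. The ages overlapped, and P30 replicate 1 was the lowest of all 6 isolations. Mean Calcrl was 418 ± 29.3 FPKM at P5 and 392 ± 51.0 FPKM at P30 (SD, n = 3 each), ranks 567 and 700 among all symbols. The log2 fold change was -0.10 (SE 0.12, limma adjusted p = 0.541), and its 95% interval of -0.39 to 0.19 corresponds to a P30 level of 0.765 to 1.14 times that at P5. Without P30 replicate 1 the log2 fold change was 0.013, so even the sign of this small difference rested on 1 isolation.

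Ramp2, the RAMP of the main endothelial adrenomedullin receptor, lies on chromosome 11 (mm9, chr11:101107342-101120860, plus strand, protein coding). It was the most abundant member, at 1824, 1893 and 1612 FPKM in P5 replicates 1 to 3 and 2796, 2091 and 2424 FPKM in P30 replicates 1 to 3. The ages did not overlap, with 198 FPKM between the highest at P5 and the lowest at P30. The means were 1776 ± 147 FPKM at P5 and 2437 ± 353 FPKM at P30 (SD, n = 3 each), a ratio of 1.37. The log2 fold change of 0.45 (SE 0.14, 95% interval 0.13 to 0.77) had a limma adjusted p of 0.0350 and was not called. At an adjusted p under 0.05 with no fold limit, where 16.1% of genes tested were higher at P30, Ramp2 and Ramp3 were the members past the limit. Ramp3 stayed past it in all 17 alternatives, whereas Ramp2 missed it in 11 of 17, among them 5 of the 6 fits without 1 isolation (limma adjusted p of 0.0596 to 0.119, all but that without P30 replicate 2). By rank of mean FPKM, Ramp2 stood 55th of all symbols at both ages, and after quantile normalization its log2 fold change was -0.019.

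The annotated Ramp2 gene shares 1103 exon bases with its same-strand neighbour Vps25, an ESCRT subunit of endosomal sorting, so reads there could be split between them. Vps25 measured 309, 328 and 295 FPKM at P5 and 363, 306 and 289 FPKM at P30. Its ages overlapped and its log2 fold change was 0.033 (SE 0.11, limma adjusted p = 0.832).

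Ramp3, the other RAMP that makes an adrenomedullin receptor, lies on chromosome 11 (mm9, chr11:6558524-6577478, plus strand, protein coding). It measured 531, 531 and 378 FPKM in P5 replicates 1 to 3 and 1257, 939 and 1163 FPKM in P30 replicates 1 to 3. The gap between the highest P5 and the lowest P30 isolation was 407 FPKM, larger than the SD of either age. Mean Ramp3 rose from 480 ± 88.6 to 1119 ± 163 FPKM (SD, n = 3 each), a ratio of 2.33, and from rank 460 to rank 182 among all symbols. The log2 fold change was 1.23 (SE 0.17, 95% interval 0.83 to 1.63, limma adjusted p = 0.00192). It stayed called whichever single isolation was left out, with log2 fold changes of 1.06 to 1.35. With each isolation scaled to its endothelial markers, the log2 fold change was 0.86 (adjusted p = 0.00255), under the 2-fold limit. Ramp3 shares 101 exon bases with the antisense transcript Gm11978, which the library kit, not marking strand, cannot separate from it, but Gm11978 was listed at 0 in 5 of 6 isolations and at 1.08 FPKM in P30 replicate 2.

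Ramp1, which pairs with Calcrl to bind calcitonin gene-related peptide, lies on chromosome 1 (mm9, chr1:93076399-93121773, plus strand, protein coding). It was listed at 0, 0.73 and 0 FPKM in P5 replicates 1 to 3 and at 3.12, 5.14 and 1.90 FPKM in P30 replicates 1 to 3. All P30 values were above all P5 values, yet neither age reached the mean of 5 FPKM asked of tested genes. The mean log2 difference was 1.802 with the pseudocount of 1 and ran from 0.66 to 3.996 with pseudocounts of 5 and 0.1, so its size is set by that choice. With no minimum, limma gave an adjusted p of 0.0150, and Ramp1 was not called.

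Adm, the ligand, lies on chromosome 7 (mm9, chr7:117771175-117773331, plus strand, protein coding). It measured 27.2, 28.7 and 32.0 FPKM in P5 replicates 1 to 3, a narrow spread, and 29.9, 62.4 and 77.8 FPKM in P30 replicates 1 to 3. P30 replicate 1 fell within the P5 range, while the other two P30 isolations were above it. The means were 29.3 ± 2.42 FPKM at P5 and 56.7 ± 24.5 FPKM at P30 (SD, n = 3 each). The coefficient of variation was 8.26% at P5 and 43.2% at P30. The log2 fold change of 0.83 (SE 0.33, 95% interval 0.062 to 1.59) had a limma adjusted p of 0.0818 and was not called. Without P30 replicate 1 it was 1.22 (adjusted p = 0.00251) and was called, so that isolation decided the call.

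The promoters of Adm, the hypoxia-inducible ligand, and of Ramp3, the called member, are shown to place the core of the hypoxia response element and the TATA box relative to each start. The sequences are RefSeq's (GRCm38.p6), each matched at a single place on the gene's own chromosome in mm9, the only chromosome searched for it. The places are chr7:117770921-117771170 for Adm and chr11:6558286-6558523 for Ramp3, both plus strand. The Ramp3 sequence stops where the mm9 gene annotation begins, 12 bases before the RefSeq start. Capitals mark ACGTG or GCGTG, the hypoxia core, and TATAA, on either strand, so that a match on the other strand stands as its reverse complement, and overlapping matches run together.
Adm: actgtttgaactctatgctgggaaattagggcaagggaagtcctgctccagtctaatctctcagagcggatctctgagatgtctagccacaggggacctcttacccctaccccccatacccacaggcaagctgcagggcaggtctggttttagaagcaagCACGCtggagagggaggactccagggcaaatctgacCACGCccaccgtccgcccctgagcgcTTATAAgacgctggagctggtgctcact
Ramp3: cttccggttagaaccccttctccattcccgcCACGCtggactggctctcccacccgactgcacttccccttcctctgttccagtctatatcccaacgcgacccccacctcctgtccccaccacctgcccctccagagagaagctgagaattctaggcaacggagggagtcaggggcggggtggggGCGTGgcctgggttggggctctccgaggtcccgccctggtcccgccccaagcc
Counted back from the RefSeq start, which for Ramp3 includes the 12 bases not printed, Adm held GCGTG on the other strand at bases 90 to 86 and 54 to 50, and TATAA at bases 27 to 23 with an overlapping match on the other strand at 28 to 24. Ramp3 held GCGTG as printed at bases 65 to 61 and on the other strand at 219 to 215, and no TATAA. The 250 bases before the RefSeq starts of Calcrl, of which 145 lie within the gene as annotated on mm9, and of Ramp1 held neither motif. Of the members, 4 were matched in RefSeq's promoters, and Ramp2 was not. Among the promoters of 27025 RefSeq genes, 38.6% held the hypoxia core and 23.5% TATAA within 250 bases, and 37.0% and 23.0% within the 238 bases of the Ramp3 window. A match describes letters, not a bound site.

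The balance among the RAMPs differed between the ages. Ramp2 made up 77.4%, 78.1% and 81.0% of the summed RAMP FPKM in P5 replicates 1 to 3 and 68.9%, 68.9% and 67.5% in P30 replicates 1 to 3. The Ramp3 share was 22.6%, 21.9% and 19.0% at P5 and 31.0%, 30.9% and 32.4% at P30. Neither share overlapped between ages, and the 3 P30 isolations lay closer to each other than the P5 isolations. The mean Ramp3 share was 21.1% ± 1.90 at P5 and 31.4% ± 0.840 at P30 (SD, n = 3 each, exact two-sided permutation p = 0.1, the smallest that 3 against 3 allows). Ramp1 contributed at most 0.169% in any isolation. Equivalently, there were 3.43, 3.56 and 4.27 Ramp2 FPKM per Ramp3 FPKM at P5 and 2.22, 2.23 and 2.08 at P30.

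The difference in change between RAMPs was tested for the 3 pairs. The log2 fold change of Ramp3 exceeded that of Ramp2 by 0.78, with no overlap of the ages in the difference of the pair (exact permutation p = 0.1, adjusted over the 3 pairs p = 0.15). That of Ramp1 exceeded that of Ramp2 by 1.35 (exact permutation p = 0.1, adjusted p = 0.15). Ramp1 and Ramp3 differed in log2 fold change by 0.57, with overlapping ages (exact permutation p = 0.4, adjusted p = 0.4). Both values with Ramp1 depend on the pseudocount, as its own difference does. The design cannot bring any of these below 0.1 before adjustment.

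Set against the receptor subunit, the RAMPs were more abundant at P30. The summed RAMP FPKM per Calcrl FPKM was 5.58, 6.27 and 4.47 in P5 replicates 1 to 3 and 12.2, 7.27 and 8.46 in P30 replicates 1 to 3. The ages did not overlap, and P30 replicate 1, the isolation with the lowest Calcrl, was farthest from P5. The mean log2 ratio was 2.43 ± 0.25 at P5 and 3.18 ± 0.38 at P30 (SD, n = 3 each, exact permutation p = 0.1). Ramp3 alone stood at 1.26, 1.37 and 0.849 FPKM per Calcrl FPKM at P5 and at 3.78, 2.25 and 2.74 at P30, so Ramp3 was above Calcrl in 5 of 6 isolations and below it in P5 replicate 3. Adm measured 6.46, 7.42 and 7.18 FPKM per 100 Calcrl FPKM at P5 and 8.97, 14.9 and 18.3 at P30. This ratio did not overlap between ages, although Adm itself did (mean log2 ratio -3.83 ± 0.11 and -2.89 ± 0.53, exact permutation p = 0.1).

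**Figure D2:**
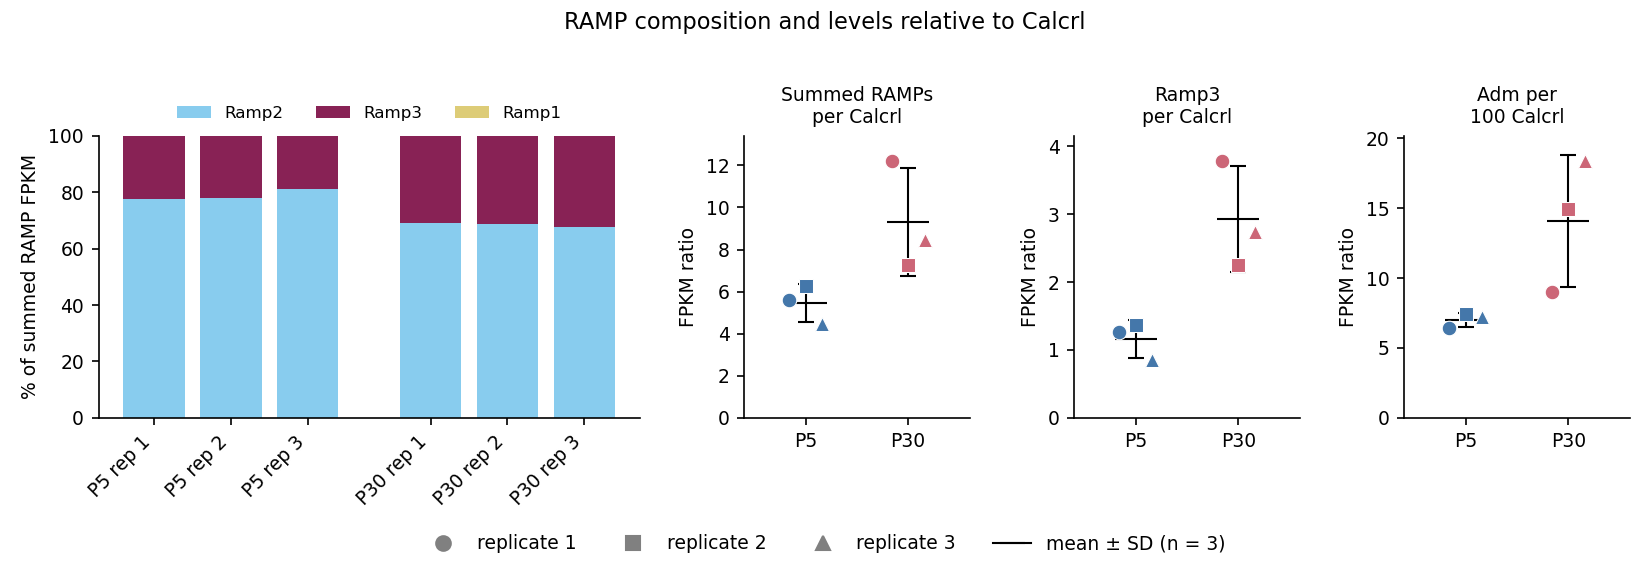
Left, percent of the summed RAMP FPKM held by Ramp2, Ramp3 and Ramp1 in each isolation. Right, FPKM ratios per isolation with mean and SD, from 0: all RAMPs per Calcrl, Ramp3 per Calcrl, and Adm per 100 Calcrl, where every P30 isolation lies above every P5 isolation.

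Because summed endothelial marker FPKM were higher at P30, each member was also set against the geometric mean of the 12 endothelial markers in its own isolation. That mean was 1632, 1683 and 1527 FPKM at P5 and 2295, 1965 and 1992 FPKM at P30, without overlap. Of the 12 markers, 8 were higher at P30 and 1, Cdh5, higher at P5 at an unadjusted p under 0.05 in limma. Among all 12481 genes tested, 2011 and 2794 were higher at P30 and at P5 at the stricter adjusted p under 0.05. The geometric mean of the markers thus changed with age itself and is no plain measure of endothelial content. On this scale Ramp3 stood at -1.62, -1.66 and -2.01 at P5 and at -0.87, -1.06 and -0.78 at P30 (log2 ratio, difference 0.86, exact permutation p = 0.1). Ramp2 ran almost level with the markers, with a log2 ratio of 0.14 ± 0.050 at P5 and 0.22 ± 0.11 at P30 (SD, n = 3 each, exact permutation p = 0.3), and its ages overlapped. Calcrl was lower relative to the markers at P30, at -2.41 ± 0.32 against -1.95 ± 0.17 (SD, n = 3 each, exact permutation p = 0.1). Against Pecam1, Cdh5 and Kdr alone, of which Cdh5 encodes the antigen of the sort and had a log2 fold change of -0.66 itself (limma adjusted p = 0.00205, under the fold limit), the differences were 0.036 for Calcrl, 0.58 for Ramp2 and 1.36 for Ramp3. The log2 ratio of Adm overlapped between ages (difference 0.46, exact permutation p = 0.4), and that of Ramp1 did not (difference 1.44, exact permutation p = 0.1). The Adm difference was 0.96 against those 3 markers, and it ran from 0.15 without P30 replicate 3 to 0.93 without P30 replicate 1.

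**Figure D3:**
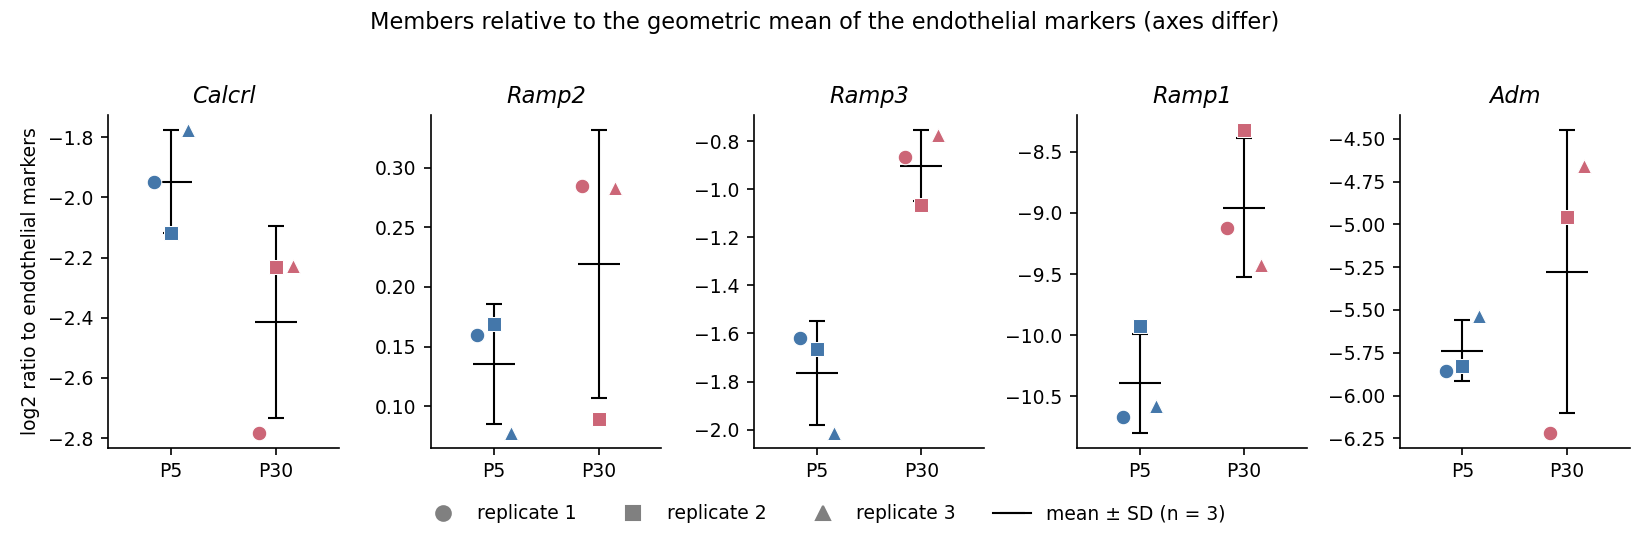
Log2 ratio of each member (FPKM + 1) to the geometric mean of 12 endothelial markers (FPKM + 1) per isolation, with mean and SD, each panel on its own axis that does not start at 0. Ramp3 and Ramp1 are higher at P30 without overlap, Calcrl is lower without overlap, and Ramp2 and Adm overlap.

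Transcripts of other cell types also differed between the ages. Over all genes tested, 5.89% were called higher at P30 and 5.82% higher at P5. Of the RPE markers, 6 of the 7 tested were called higher at P30, and the summed FPKM of the list was 91.3 to 178 at P5 and 554 to 3939 at P30. Rpe65 was at 0 in 2 P5 isolations, and the highest marker of the list was Ttr. Of the photoreceptor markers 3 of 6 tested were called higher at P30 (sums of 2.70 to 9.60 and 41.8 to 366), with Rcvrn at 0 in all P5 isolations. Of the pericyte markers 1 of 7 was called higher at P30 (468 to 1712 and 1841 to 6228), with Rgs5 the highest. Of the smooth muscle markers 2 of 6 tested were called higher at P30 (560 to 595 and 716 to 1469), with Smtn the highest, which was not called. Of the fibroblast markers 1 of 6 was called higher at P30, with sums of 725 to 1193 at P5 and 1776.5 to 4488 at P30. Haematopoietic markers gave 2 of 7 called higher at P5, with overlapping sums of 566 to 852 and 321 to 825, and Cd3e at 0 throughout. Schwann cell markers gave 1 of 5 called higher at P30 (12.9 to 51.4 and 60.2 to 306), with Mbp the highest. Pigment cell (97.0 to 457 and 120 to 1251), erythroid (166 to 488 and 436 to 1536) and lymphatic endothelial (362 to 499 and 526 to 646) markers gave 0 calls by limma at the same limits, with 0, 2 and 2 genes higher at P30 at an unadjusted p under 0.05. Most of the lymphatic endothelial sum was Flt4, at 379 ± 55.3 FPKM at P5 and 536 ± 71.6 FPKM at P30. The next highest mean in that list was 38.3 FPKM (Pdpn at P30), and Prox1 measured 3.68 and 5.41 FPKM.

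Within P30, Ramp2 and Ramp3 were both highest in replicate 1 and lowest in replicate 2, an order that the endothelial and haematopoietic sums shared. With 3 isolations few orders are possible, so lists and genes can share an order by chance. Pericyte and fibroblast sums were highest in replicate 2 and lowest in replicate 1, and RPE, photoreceptor, Schwann cell and pigment cell sums were highest in replicate 1 and lowest in replicate 3. Ramp1 was highest in replicate 2, then 1, then 3, the order of the smooth muscle and of the erythroid sums. Adm was lowest in replicate 1, where the RPE sum was highest, and highest in replicate 3, where it was lowest. The part of these cell types in the results for Ramp1, Ramp2, Ramp3 and Adm was not tested.

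**Figure D4:**
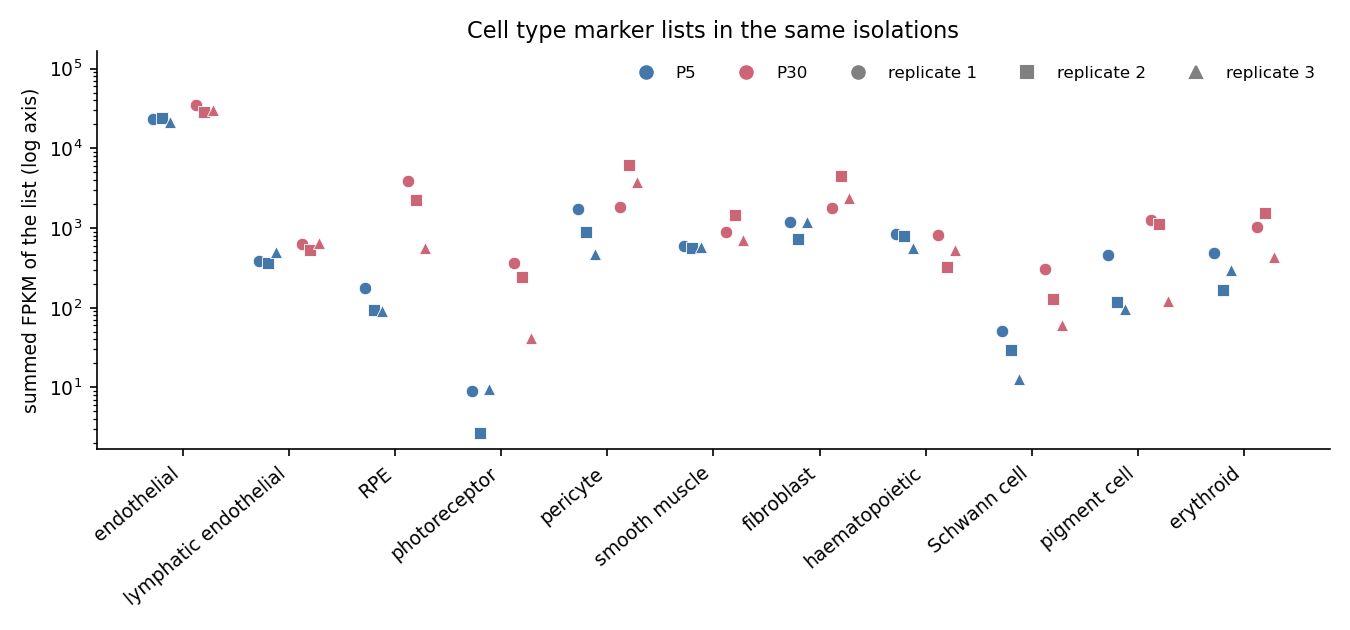
Summed FPKM of each marker list on a log axis in the 3 P5 and 3 P30 isolations. Endothelial sums (21531 to 34717) exceed every other list in every isolation, and RPE and photoreceptor sums at P30 lie above P5 and spread widely between P30 isolations.

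Around the receptor, 70 genes of 8 lists were examined, of which 54 were tested. limma called 2 higher at P30 (Cxcr7 and Pde4c) and 2 higher at P5 (Adcy7 and Arrb2). Neither count was above the share called over all genes tested, 5.89% and 5.82%. The median log2 fold change of the 54 was 0.16 beside -0.10 over all genes. Adcy5 and Pde4c passed the minimum FPKM only through P30, with P5 means of 3.26 and 3.93 FPKM.

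Among ligands and the enzymes that process or clear them, 5 of 9 were tested and 0 were called by limma. At an unadjusted p under 0.05, 2 were higher at P30, among them Ece1, beside 16.1% of all genes at the stricter adjusted p under 0.05. Adm2, Calcb and Iapp, the other peptides of the family, were listed at 0 in all isolations, and Calca, which encodes calcitonin gene-related peptide, was listed at 3.37 FPKM in P30 replicate 1 and at 0 elsewhere. Pam, which amidates adrenomedullin, measured 260 ± 14.8 FPKM at P5 and 298 ± 39.6 FPKM at P30 with overlapping ages. Ece1, an endothelin-converting peptidase, measured 785 ± 28.3 and 1023 ± 51.4 FPKM (limma adjusted p = 0.0142).

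Among the other receptors of these ligands, Cxcr7, a scavenging receptor for chemokines that also binds adrenomedullin, rose. It measured 82.4, 65.1 and 51.2 FPKM in P5 replicates 1 to 3 and 209, 286 and 206 FPKM in P30 replicates 1 to 3. The ages were far apart, and the log2 fold change was 1.81 (SE 0.20, limma adjusted p = 0.000776). Calcr, the calcitonin receptor, was listed at 0 throughout. Crcp, which encodes a component of the calcitonin gene-related peptide receptor complex and of an RNA polymerase, was 79.9 ± 9.89 FPKM at P5 and 57.5 ± 8.24 FPKM at P30 (limma adjusted p = 0.0431, not called). Of 9 other receptors known to bind RAMPs, only Pth1r passed the minimum FPKM, at 7.33 ± 3.69 and 24.4 ± 18.0 FPKM with overlapping ages, and 4 were at 0 in all isolations.

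Downstream, Gnas, which encodes Gs alpha, was near level at 4060 ± 174 FPKM at P5 and 4162 ± 297 FPKM at P30 (log2 fold change 0.034, SE 0.11, limma adjusted p = 0.822). Of 9 adenylyl cyclases, which make cAMP, 6 were tested. At an unadjusted p under 0.05 in limma, 5 of these were higher at P30 and 1, Adcy7, higher at P5. Of the 5, Adcy5 passed the minimum FPKM only through P30. Over all genes tested, 16.1% were higher at P30 at the stricter adjusted p under 0.05. Adcy7 fell from 23.2, 24.6 and 28.2 FPKM to 9.24, 10.4 and 10.9 FPKM (log2 fold change -1.23, SE 0.19, limma adjusted p = 0.00277). The most abundant cyclase, Adcy4, measured 280 ± 22.8 and 401 ± 72.7 FPKM without overlap and was not called (limma adjusted p = 0.0294). The call of Adcy7 was lost in 5 of 18 alternatives, among them each fit without 1 P5 isolation, where adjusted p was 0.0144 to 0.0222.

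Of 11 cAMP effectors 0 were called by limma, with 3 higher at P30 and 2 higher at P5 at an unadjusted p under 0.05. At the stricter adjusted p under 0.05, 2011 and 2794 of all 12481 genes tested were higher at P30 and at P5. Rapgef4, a cAMP-activated exchange factor for Rap, missed the fold limit at 170, 151 and 147 FPKM in the P5 isolations and 304, 290 and 314 FPKM in the P30 isolations. Its log2 fold change was 0.95 with SE 0.097 (limma adjusted p = 0.000535). Of 10 cAMP phosphodiesterases, which degrade cAMP, Pde4c rose. It measured 4.21, 4.33 and 3.26 FPKM in P5 replicates 1 to 3 and 26.4, 35.2 and 37.2 FPKM in P30 replicates 1 to 3, far outside the spread of either age. Its log2 fold change was 2.78 (SE 0.24, limma adjusted p = 0.000314). Pde7b (91.0 ± 5.39 and 171 ± 23.1 FPKM) and Pde7a (45.8 ± 4.45 and 24.5 ± 4.94 FPKM) went in opposite directions, with limma adjusted p of 0.00183 and 0.00936, and both were under the fold limit. Rapgef4, Pde7a and Pde7b, like Arrb1, Vhl and Epas1 below, were named after their values were seen, as the pathway genes past adjusted p but not past the fold limit.

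Among genes of receptor desensitization and recycling, Arrb2, which encodes beta-arrestin 2, fell from 95.1, 142 and 116 FPKM to 66.6, 40.1 and 59.6 FPKM (log2 fold change -1.09, SE 0.22, limma adjusted p = 0.00872). Its call was lost in 10 of 18 alternatives, with adjusted p up to 0.0396, among them fits without any single P5 isolation or without P30 replicate 2 or 3. Arrb1, the other beta-arrestin, was 115 ± 5.01 and 63.1 ± 16.6 FPKM (limma adjusted p = 0.00822, under the fold limit). The G protein-coupled receptor kinases Adrbk1, Adrbk2, Grk5 and Grk6 and the recycling genes Rab11a, Rab4a, Nsf and Slc9a3r1 were not called. Of the 10 genes of this list, 1 was higher at P30 and 4 higher at P5 at an unadjusted p under 0.05 in limma. Over all 12481 genes tested, 2011 and 2794 were higher at P30 and at P5 at the stricter adjusted p under 0.05.

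Of the 8 oxygen-sensing factors upstream of Adm, 0 were called by limma, with 1 higher at P30 and 3 higher at P5 at an unadjusted p under 0.05. Over all 12481 genes tested, 2011 and 2794 were higher at P30 and at P5 at the stricter adjusted p under 0.05. Epas1, which encodes HIF-2 alpha, measured 1528, 1434 and 1085 FPKM at P5 and 2386, 2741 and 2622 FPKM at P30, without overlap (log2 fold change 0.95, SE 0.15, limma adjusted p = 0.00292). Hif1a, its paralog HIF-1 alpha, went the other way at 521 ± 113 and 309 ± 57.4 FPKM (adjusted p = 0.0226). Vhl, which targets both for degradation, was 73.7 ± 2.37 and 40.2 ± 8.53 FPKM (log2 fold change -0.88, SE 0.16, adjusted p = 0.00599). Epas1 and Vhl were under the fold limit, and Hif1a also missed the limit on adjusted p.

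**Figure D5:**
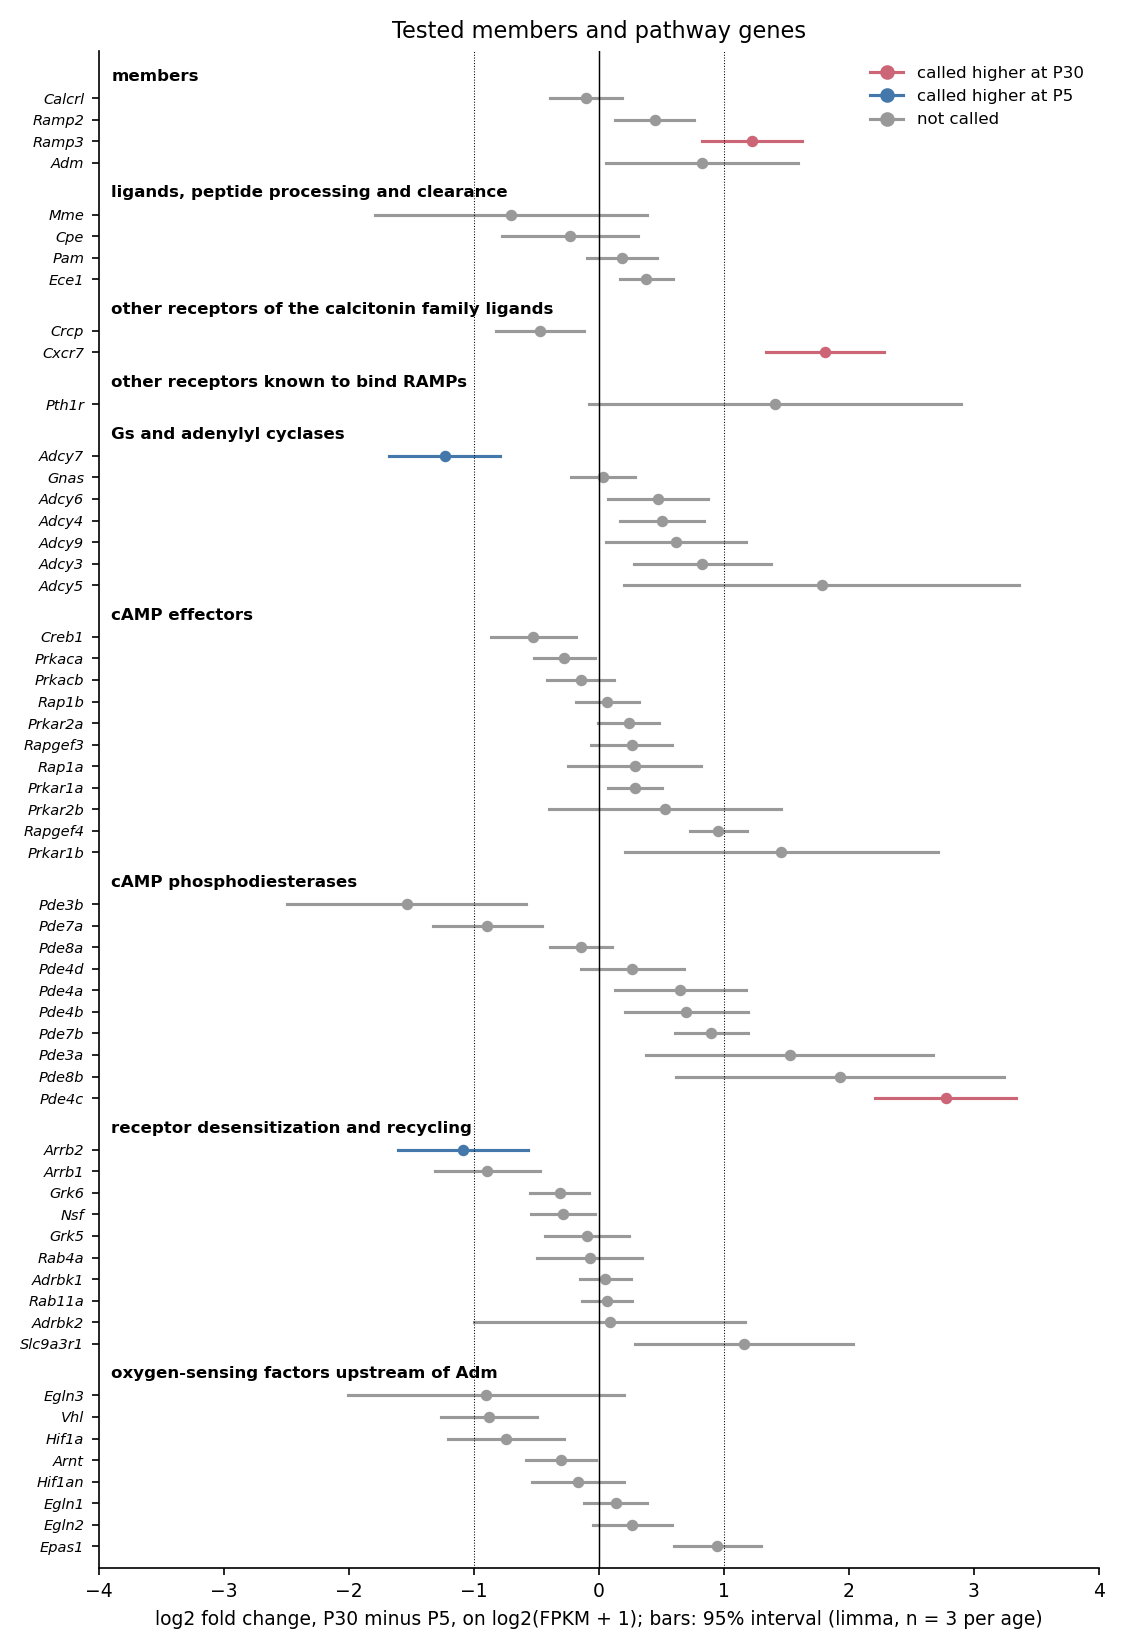
Log2 fold change (P30 minus P5) on log2(FPKM + 1) with 95% intervals for the 4 tested members and all but 1 of the 54 tested pathway genes, grouped by list, with dotted lines at 2-fold. Ramp3, Cxcr7 and Pde4c are called higher at P30 and Adcy7 and Arrb2 higher at P5.

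The genes whose profile over the 6 isolations was most like each member were found by the smallest maximum difference in centred log2(FPKM + 1). For Ramp3 these were Tex264, Plekhb2 and Spryd3, within 0.11, 0.12 and 0.13 log2 units in every isolation. For Ramp2 they were Il15, Bag5 and Ubxn6, within 0.061 to 0.075. For Calcrl they were Mfn1, Fzd1 and Bcl2, within 0.050 to 0.056, and 153 genes lay within 0.15 of it. Only 3 genes lay within 0.15 of Ramp3 and 0 within 0.15 of Adm, whose nearest genes Csrnp2, Leng9 and Hspa2 differed by 0.23 to 0.26.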

How the data were processed

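RNA of sorted choroid ECs was made into TruSeq libraries and sequenced on an Illumina HiSeq2000. Reads were aligned by the authors with TopHat (mm9), and they deposited 1 FPKM value per symbol and isolation from Cufflinks, normalized for GC and by the upper quartile. Processing notes also name CASAVA 1.8.2 and FastQC; the annotation and other versions are not given in the sources used here. FPKM are no counts, and low FPKM did not step in whole reads (at most 6.72% of shared genes under 1 FPKM fell in any bin of 0.05 in log2 ratio), so no count test was run.

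The FPKM were used as deposited. limma 3.58.1 (R 4.3.3, lmFit and eBayes with trend) compared 3 P30 with 3 P5 isolations on log2(FPKM + 1), over genes reaching a mean of 5 FPKM at either age, two-sided, with Benjamini-Hochberg adjustment; a call needed adjusted p under 0.01 and 2-fold. In simulated data the fit called 161 of the 195 changed genes that were tested, with 0 false calls. Both simulated ages had the spread of the P5 isolations, so the wider spread of some genes at P30 was not tested. Shares and ratios had exact two-sided permutation tests (scipy 1.17.1; pandas 2.3.3). Gene positions come from GENCODE M1 on mm9. Gper was read under its older symbol Gpr30. Members and lists were chosen with earlier results of these data known. Named were all members, pathway genes past both limits, the 3 genes most like each member, and the highest marker where a list moved; some of these genes are not reported here. Alternatives covered pseudocount, minimum, trend, scaling, block, weights, limits and each left-out isolation.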

Additional observations from a re-analysis of the deposited data

How the results depend on the processing

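Ramp3 kept its direction in all 18 alternatives and its call in all but endothelial marker scaling, where the log2 fold change was 0.86; its range was 0.86 to 1.35. That scaling moved the median of all genes from -0.10 to -0.46 and the calls from 735 and 726 to 497 higher at P30 and 1601 higher at P5. The looser limit of adjusted p under 0.05 with no fold limit gave 2011 and 2794 genes and took in Ramp2 at 0.45. Quantile normalization turned Ramp2 to -0.019; it gives equal values to equal ranks, and Ramp2 ranked 55th at both ages. Pseudocounts of 0.1 and 5 gave log2 differences of 3.996 and 0.66 for Ramp1. Against Pecam1, Cdh5 and Kdr only, the differences of the log2 ratios were 0.036 for Calcrl, 0.96 for Adm, 1.94 for Ramp1, 0.58 for Ramp2 and 1.36 for Ramp3. Without 1 isolation each, the calls ran from 396 to 849 higher at P30 and from 291 to 754 higher at P5. They were lowest without P5 replicate 2 (404 and 291) or P5 replicate 3 (396 and 297), and without P5 replicate 1 there were 427 higher at P5, while the fits without 1 P30 isolation gave at least 543 and 704. Adm ran from 0.55 to 1.22, called without P30 replicate 1, and Calcrl from -0.16 to 0.013, above 0 without P30 replicate 1. The cause was not tested. Of the other 86 recomputed shares, ratios and differences, 4 moved by more than the spread between isolations, all with Pecam1, Cdh5 and Kdr only.

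The same replicate numbers occur at both ages, and the labels do not say whether they pair the isolations. The deviations of same-numbered isolations correlated at -0.0905 to -0.0305, and 0 of 6 isolations correlated best with its own number. With 3 isolations per age, such correlations cannot show whether same-numbered isolations were handled together. Pairing is therefore unknown, and the main fit used no block. With the replicate number as a block, 585 genes were called higher at P30 and 524 higher at P5. In that fit the log2 fold changes were 0.83 for Adm, -0.10 for Calcrl, 0.45 for Ramp2 and 1.23 for Ramp3 (limma adjusted p = 0.00497 for Ramp3), and no member's call changed, while those of Adcy7 and Arrb2 were lost. With 3 isolations per age and unknown depth, low genes such as Ramp1 are the least certain.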

Other observations

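Receptors for other ligands that also signal through Gs were looked at after the members' values had been seen, in a list of 13 genes, of which 7 were tested. limma called 1 higher at P30 and 0 higher at P5, beside 5.89% and 5.82% of all genes tested. Their median log2 fold change was 1.57 beside -0.10 over all genes. Adora2b, Ptger4 and Ptgir passed the minimum FPKM only through P30, with P5 means of 1.42, 3.67 and 2.83 FPKM, which raises that median. Ptger4, the prostaglandin E receptor EP4, rose from 6.02, 2.48 and 2.52 FPKM in P5 replicates 1 to 3 to 17.7, 27.7 and 21.9 FPKM in P30 replicates 1 to 3 (log2 fold change 2.39, SE 0.36, limma adjusted p = 0.00263). Ptgir, the prostacyclin receptor, measured 2.83 ± 1.93 and 14.9 ± 6.37 FPKM (SD, n = 3 each, limma adjusted p = 0.0136, not called). Gpr4, a proton-sensing receptor, measured 108 ± 9.69 and 191 ± 23.7 FPKM (limma adjusted p = 0.00324, under the fold limit). Adora2a, an adenosine receptor, went the other way, at 158 ± 12.3 and 80.8 ± 9.78 FPKM (log2 fold change -0.97, SE 0.12, limma adjusted p = 0.00137, under the fold limit). At P30 the level of Calcrl (392 ± 51.0 FPKM) was above each of these named receptors in every isolation. The part of other cell types in these values was not tested.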
